A study of Homo sapiens with 3 samples.

Results

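The genes described here are 31 targets and regulators of NRF2, the transcription factor encoded by NFE2L2 that turns on antioxidant and detoxifying genes. They were listed by name as known members of the pathway. The rule names no measured value, but the list was drawn up with earlier results of these data known. They are 31 of the 20162 protein-coding genes and 64440 annotated genes of the reference. YTHDC1, a nuclear protein that reads the RNA mark N6-methyladenosine, was immunoprecipitated with its bound chromatin from A549, an established human lung adenocarcinoma cell line, and the DNA was sequenced (ChIP-seq). The single group held 3 replicates whose labels name no knockdown, transgene or drug, and the authors pooled them before calling peaks, so the file analysed is 1 set of 6368 peaks and gives no value per replicate. No input, IgG or expression library was analysed here.

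In most cells NRF2 protein is bound by KEAP1, an adaptor that presents it for ubiquitination and degradation, and oxidants or electrophiles that modify KEAP1 let NRF2 accumulate. NRF2 then pairs with a small MAF protein at antioxidant response elements and raises the genes that make glutathione, regenerate thioredoxin, supply NADPH and clear aldehydes and drugs. A549 is known as a KEAP1-mutant line in which NRF2 is constantly active. The sample labels do not give that genotype and a peak list cannot check it, so it stands here as background only.

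A YTHDC1 peak lay in the gene or within 1000 bases around it for 17 of the 31 NRF2 targets (54.8%, 95% Wilson interval 37.8 to 70.8%), beside 25.1% of all protein-coding genes. The 17 genes included AKR1B10, AKR1C1, ALDH3A1, UGDH and ABCC3 among the detoxifying genes, and SLC7A11 and GSR among the glutathione genes. Among the redox genes they were TXN, TXNRD1, SRXN1 and PRDX1. All 6 genes grouped here under control of NRF2 (NFE2L2, KEAP1, SQSTM1, MAFG, TRIM16 and OSGIN1) had a peak. None of the 4 genes grouped here under NADPH supply had one. These 17 genes held 25 peaks, of which 16 lay at a start, 7 in the gene body and 2 at the gene end. The list was made with results known and the replicates were pooled, so these shares carry no test and the interval covers counting over genes only.

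A peak counted as a start peak when it overlapped the 200 bases on either side of any annotated transcript start. Start peaks were present at 13 of the 31 NRF2 targets (41.9%, interval 26.4 to 59.2%), beside 15.7% of protein-coding genes. The count depended on the overlap asked for: it was 6 (19.4%, beside 10.8%) when the window had to hold the middle of the peak and 5 (16.1%, beside 10.4%) when it had to hold 50% of the peak, and it was 8 (25.8%, beside 11.7%) with only the canonical start of each gene. In 8 of the 13, the peak touched the start of the canonical transcript, the 1 transcript that Ensembl picks to represent a gene, and in ABCC3, AKR1C1, KEAP1, NFE2L2 and SQSTM1 it touched only another annotated start. Body peaks were found in 6 targets (19.4%), beside 7.64% of protein-coding genes, and end peaks in 2 (6.45%), beside 2.54%. No target had a peak in its 1000 upstream bases that was not already a start peak. This count of 0 allows a share of up to 9.68%, beside 2.22% of protein-coding genes. The GSR peak from −699 to −175 lay wholly upstream of the gene and was counted as a start peak.

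Longer genes offer more room for a peak, so the counts were split by gene length. Of the NRF2 targets under 20 kb, 6 of 11 had a peak (54.5%), beside 19.7% of protein-coding genes of that length. The counts were 6 of 11 (54.5%) beside 25.8% at 20 to 50 kb, and 5 of 9 (55.6%) beside 31.4% at 50 kb or more. The share among NRF2 targets was thus about level over the 3 length classes, while that among all protein-coding genes was higher in longer genes.

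**Figure D1:**
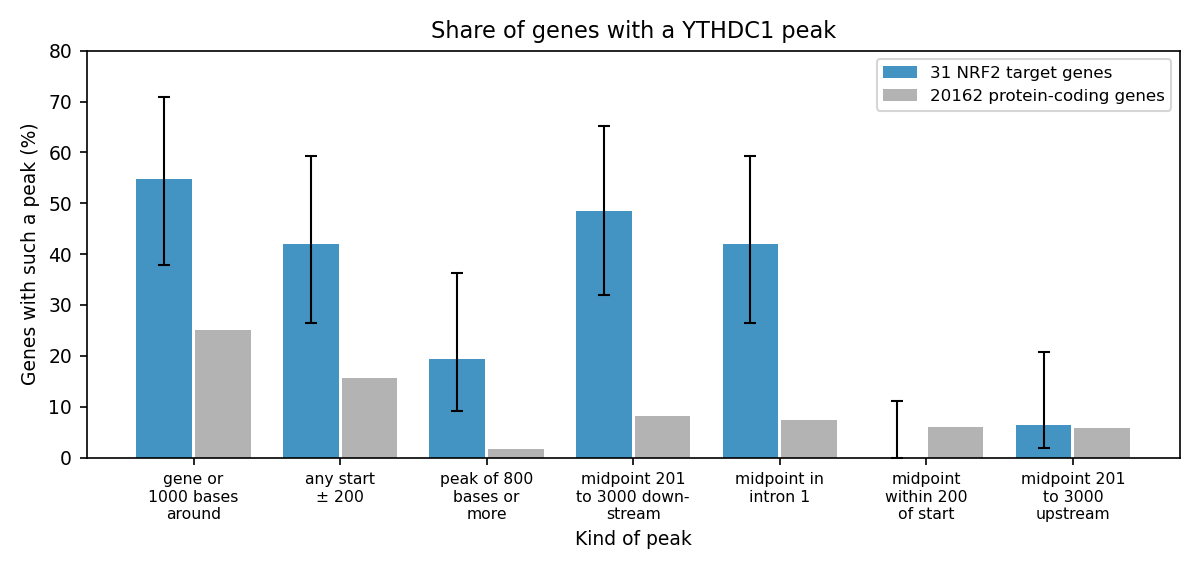
Share of genes (%, vertical axis) with each kind of peak, for the 31 NRF2 targets (blue, left) and all 20162 protein-coding genes (grey, right); bars on the blue columns are 95% Wilson intervals, which cover counting over genes only. The NRF2 targets stood at 54.8% beside 25.1% for any peak and at 48.4% beside 8.20% for a peak midpoint over 200 and up to 3000 bases downstream of the start, and none had a midpoint within 200 bases of the start.

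The detoxifying genes held 4 of the 6 widest peaks of the list. Of these 10 genes, 5 had a peak (50%, interval 23.7 to 76.3%), beside 25.1% of protein-coding genes. All 5 had a start peak, beside 15.7% of protein-coding genes. Their 6 peaks had a median width of 1087 bases and a median −log10 q of 1.98. The −log10 q is the value deposited with each peak, read here as minus the logarithm of the false discovery rate, so that a larger value is a stronger call. The peak names refer to a merging of peaks whose method is not given in the sources used here, so a width or −log10 q may belong to a merged peak. ALDH3A1, an aldehyde dehydrogenase that oxidises aromatic and medium-chain aldehydes, had the strongest peak of all NRF2 targets. It lay at chr17:19650076-19651495 (hg19), was 1420 bases wide with a −log10 q of 8.19, and ranked 66 of 6368 by −log10 q and 41 by width. The peak ran from 116 to 1535 bases downstream of the canonical start, with its midpoint in intron 1.

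UGDH, which makes the UDP-glucuronate used to conjugate drugs, had the widest peak of the list, 1620 bases at chr4:39527399-39529018. Its −log10 q was only 1.48 (rank 2673), while its width ranked 27, so width and strength came apart at this gene. AKR1B10, an aldo-keto reductase of retinal and lipid aldehydes, had a 1312-base peak at chr7:134212390-134213701 with a −log10 q of 2.53, reaching from 71 to 1382 bases past the start. A second AKR1B10 peak of 538 bases lay in intron 4 at chr7:134219538-134220075 (1.78). Of the 31-base words of these AKR1B10 peaks, 23% in the wide one and 11.2% in the other occur more than once in the genome.

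AKR1C1, a hydroxysteroid and ketone reductase, had an 862-base peak at chr10:5006949-5007810 with a −log10 q of 2.18, centred 1772 bases downstream of the canonical start in intron 1. Its close relatives AKR1C2 and AKR1C3 had no peak, and the AKR1C1 peak was the nearest to both, at 22157 and 69736 bases. Sequence at the starts of AKR1C1 and AKR1C2 is largely repeated in the genome. Of the 31-base words within 500 bases of the start, 77.4% at AKR1C1 and 78.3% at AKR1C2 occur more than once, but only 0.721% at AKR1C3. Whether the copies lie in the other AKR1C genes was not tested. Inside the AKR1C1 peak the share was 24.8%. How reads with several matches were placed is not given in the sources used here, so the absence of a peak at AKR1C2 is uncertain. ABCC3, an exporter of glucuronide and glutathione conjugates, had a 521-base peak at chr17:48739054-48739574 with a −log10 q of 1.58. The ABCC3 peak was centred 27072 bases past the canonical start, in intron 8, and at −199 from an internal annotated start.

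The other detoxifying genes had no peak. CBR1, a carbonyl reductase, was 9623 bases from the nearest peak, EPHX1, the microsomal epoxide hydrolase, 31773 bases, and ABCC2, an exporter related to ABCC3, 2649 bases. The central 240 bases of the strongest start peaks of the list, at ALDH3A1, SQSTM1 and AKR1B10 and at the cystine transporter gene SLC7A11, are printed to show how unlike these stretches are. Each is given on the strand of the gene and holds no match to mark in capitals.
ALDH3A1 (chr17:19650665-19650904, minus strand): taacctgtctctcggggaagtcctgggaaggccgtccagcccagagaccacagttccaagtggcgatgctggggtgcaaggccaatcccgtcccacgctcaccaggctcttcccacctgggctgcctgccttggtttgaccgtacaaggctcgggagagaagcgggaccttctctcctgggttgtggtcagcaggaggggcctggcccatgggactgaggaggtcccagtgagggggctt
SLC7A11 (chr4:139162970-139163209, minus strand): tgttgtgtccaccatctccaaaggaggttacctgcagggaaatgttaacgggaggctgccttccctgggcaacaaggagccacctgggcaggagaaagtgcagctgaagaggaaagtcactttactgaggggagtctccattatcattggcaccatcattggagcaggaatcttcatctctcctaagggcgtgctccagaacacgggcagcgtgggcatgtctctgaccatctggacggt
SQSTM1 (chr5:179248863-179249102, plus strand): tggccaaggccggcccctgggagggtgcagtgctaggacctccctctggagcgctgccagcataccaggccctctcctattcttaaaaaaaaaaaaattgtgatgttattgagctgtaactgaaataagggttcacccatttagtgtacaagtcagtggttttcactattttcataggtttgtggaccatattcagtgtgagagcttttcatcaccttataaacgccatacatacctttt
AKR1B10 (chr7:134212925-134213164, plus strand): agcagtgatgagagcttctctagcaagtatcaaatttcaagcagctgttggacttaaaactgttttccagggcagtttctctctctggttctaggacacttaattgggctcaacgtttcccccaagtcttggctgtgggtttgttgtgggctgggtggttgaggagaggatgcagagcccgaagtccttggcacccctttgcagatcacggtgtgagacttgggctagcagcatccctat
Over the 4 stretches the G and C content was 44.6% in SQSTM1, 50.4% in AKR1B10, 54.2% in SLC7A11 and 63.8% in ALDH3A1.

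Among the 5 glutathione genes, SLC7A11 and GSR had peaks. SLC7A11 encodes the cystine importer that feeds glutathione synthesis, and its 521-base peak at chr4:139162830-139163350 had the second highest −log10 q among NRF2 targets, 5.55 (rank 138 of 6368). Unlike the wide peaks in introns, this one was centred in coding exon 1, 413 bases past the start. GSR, the reductase that regenerates reduced glutathione, was flanked by 2 start peaks, 1 of 269 bases with a −log10 q of 2.09 centred 238 bases downstream in coding exon 1, and 1 of 525 bases with a −log10 q of 1.10 centred at −437.

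GCLC and GCLM encode the catalytic and modifier subunits of glutamate-cysteine ligase, the rate-limiting enzyme of glutathione synthesis. Neither had a peak, and the nearest ones were 34516 and 37018 bases away. GPX2, a glutathione peroxidase of epithelia, was 176563 bases from the nearest peak. Within this group, 2 of 5 genes had a peak (40%, interval 11.8 to 76.9%), beside 25.1% of protein-coding genes. These are too few genes to tell the steps of glutathione supply apart.

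Of the 6 thioredoxin and redox genes, 4 had peaks (66.7%, interval 30.0 to 90.3%), beside 25.1% of protein-coding genes. They held 7 peaks with a median −log10 q of 1.48. PRDX1, an abundant peroxidase that thioredoxin reduces, had a 1069-base peak at chr1:45986432-45987500 with a −log10 q of 1.48, from 56 to 1124 bases past the start and centred in intron 1. TXN, thioredoxin itself, had a 344-base peak at chr9:113018277-113018620 (1.56), centred 339 bases past the start in intron 1. SRXN1, the sulfiredoxin that repairs overoxidised peroxiredoxins, had a 330-base peak in intron 1 at chr20:633188-633517 (1.58). The SRXN1 peak began 327 bases past the start and so fell outside the start window. A second one of 319 bases lay at the gene end at chr20:626272-626590 (1.85).

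TXNRD1, the selenoenzyme that reduces thioredoxin, was the only target with 3 peaks. The canonical start had a 650-base peak at chr12:104609520-104610169 with a −log10 q of 1.47, the only peak of the list that covered the canonical start base. The other 2, at chr12:104681537-104681774 (238 bases, 1.08) and chr12:104682680-104683025 (346 bases, 1.15), lay in introns 3 and 4, the second of them at another annotated start. NQO1, a quinone reductase widely used as a readout of NRF2, had no peak and was 376386 bases from the nearest. HMOX1, the heme oxygenase that opens the heme ring, had none within 1000 bases either, and its surroundings are described further on.

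The 4 genes grouped here under NADPH supply had no peak. With so few genes, this count allows a share of up to 75%, beside 25.1% of protein-coding genes with a peak. TKT and TALDO1 are transketolase and transaldolase of the pentose phosphate pathway, PGD is its phosphogluconate dehydrogenase and ME1 is the cytosolic malic enzyme. The nearest peaks were 451948, 4424, 1570 and 1331660 bases from TKT, TALDO1, PGD and ME1. With no input library it was not tested whether peaks could be called at these genes at all.

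All 6 genes grouped here under control of NRF2 had a peak (interval 61.0 to 100%), beside 25.1% of protein-coding genes, but most peaks were narrow. SQSTM1 encodes p62, the autophagy receptor that binds KEAP1 and frees NRF2, and had a 1613-base peak at chr5:179248177-179249789 with a −log10 q of 2.64, from 272 to 1884 bases past the canonical start and ranked 28 by width. A second SQSTM1 peak of 367 bases lay at an annotated start further upstream at chr5:179234289-179234655 (0.974). NFE2L2, which encodes NRF2, had a 251-base peak at chr2:178128281-178128531 with a −log10 q of 2.10, centred 1049 bases past the canonical start in intron 1 and at another annotated start.

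KEAP1 had the weakest peak of the list. It was 316 bases wide at chr19:10612965-10613280 with a −log10 q of 0.716, ranked 6145 of 6368, and was centred in intron 1. KEAP1 was also the only 1 of the 17 genes without a peak of q under 0.05, so 16 of 31 NRF2 targets had such a peak (51.6%), beside 14.3% of protein-coding genes. MAFG, a small MAF partner of NRF2, had a 262-base peak in intron 1 at chr17:79884570-79884831 (1.60), beginning 780 bases past the start, and a 263-base peak at its end at chr17:79875615-79875877 (0.768). The end peak of MAFG also lay within 200 bases of the start of SIRT7, a nuclear deacylase, and cannot be assigned to either gene.

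OSGIN1, a growth inhibitor that NRF2 induces, had a 272-base peak at chr16:83987192-83987463 with a −log10 q of 1.43, centred 482 bases past the canonical start in intron 1. TRIM16, a tripartite-motif ligase of stress-induced autophagy, had peaks of 306 and 286 bases in exon 7 at chr17:15554307-15554612 (1.38) and chr17:15554894-15555179 (0.966). The weaker TRIM16 peak also lay within 200 bases of starts annotated to ENSG00000251537 and ENSG00000266261, so its assignment is uncertain.

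**Figure D2:**
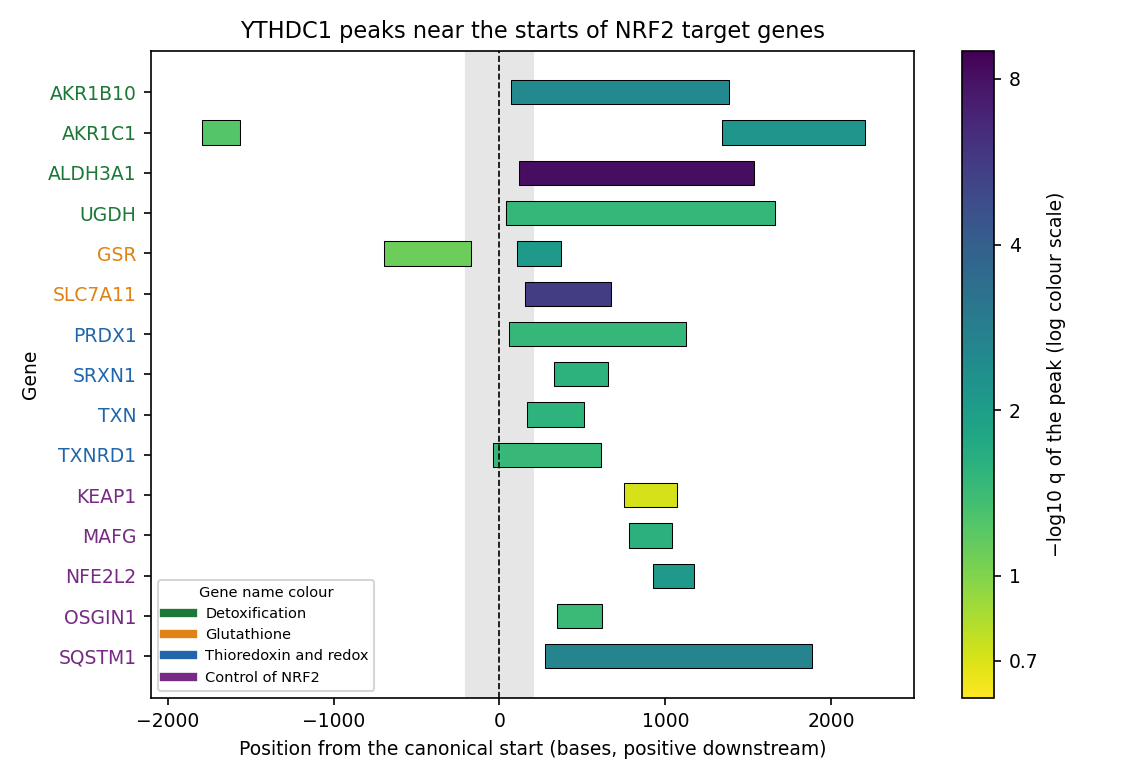
Extent of each peak whose midpoint lay within 3000 bases of the canonical start of an NRF2 target; the horizontal axis is the distance in bases from that start (positive downstream), the bar colour is −log10 q on a log scale, the gene name colour is the role, and the grey band is 200 bases on either side. Of the 15 genes shown, each had a peak centred downstream, GSR also had 1 centred at −437, and AKR1C1 also had 1 centred at −1679 that lay over 1000 bases from the gene and is not among the 25.

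Peak positions were compared next. Measured from the canonical start, 15 of the 31 NRF2 targets had a peak midpoint over 200 and up to 3000 bases downstream. That was 48.4% (interval 32.0 to 65.2%), beside 8.20% of protein-coding genes, in a range chosen after seeing the data. None had a midpoint within 200 bases of the canonical start (0 of 31, which allows a share of up to 9.68%), beside 5.97%. With any annotated start in place of the canonical one, 6 had a midpoint within 200 bases (19.4%), beside 10.8%. On the upstream side, over 200 and up to 3000 bases from the canonical start, 2 had one (6.45%, GSR and AKR1C1), beside 5.71%. The upstream AKR1C1 peak was 1401 bases from the gene and so is not among the 25. The share of NRF2 targets was therefore above that of all protein-coding genes downstream of the start, and near it upstream.

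A midpoint in intron 1 of the canonical transcript was found in 13 of the 31 NRF2 targets (41.9%), beside 7.34% of protein-coding genes. Intron 1 had a median length of 4.27 kb in the NRF2 targets and 3.59 kb in all protein-coding genes. The downstream position and intron 1 overlap as measures, and SLC7A11 and GSR were the downstream peaks centred in coding exon 1 instead.

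Among the peaks of NRF2 targets centred within 3000 bases of the canonical start, the AKR1C1 peak at −1679 included, 15 of 17 lay downstream (88.2%), with a median at 590 bases. All 4150 such pairs of a protein-coding gene and a peak had 59.1% downstream and a median at 121.5 bases. Midpoints over 200 bases downstream made up 88.2% of these 17 pairs of an NRF2 target and a peak and 42.1% of all pairs. Of the 17 pairs, 5 fell between 250 and 500 bases, the fullest stretch for NRF2 targets, while the fullest stretch for all genes was 0 to 250 bases with 938 pairs.

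**Figure D3:**
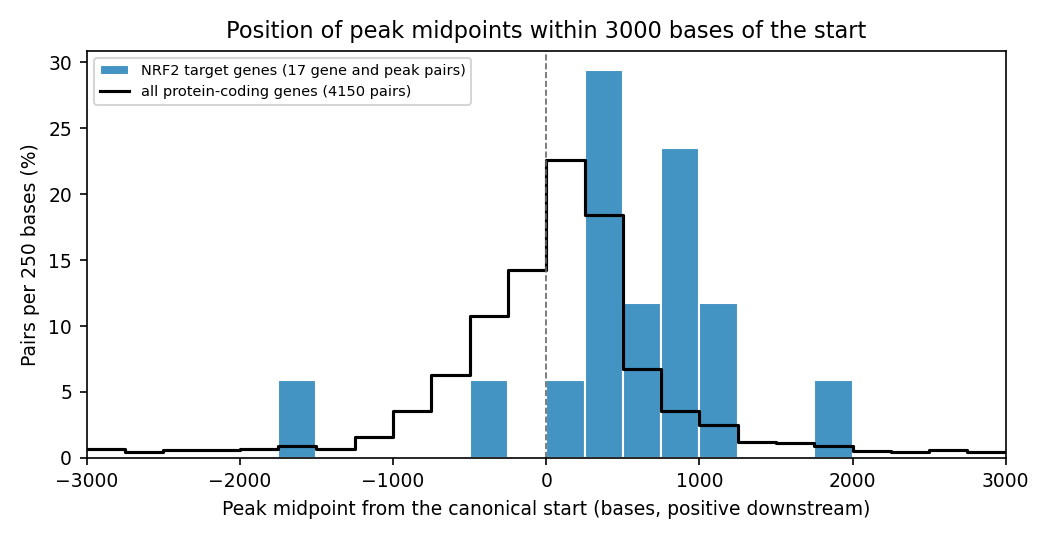
Position of peak midpoints from the canonical start (bases, horizontal axis, positive downstream) as the share of gene and peak pairs in each stretch of 250 bases (%, vertical axis); blue columns are the 17 pairs of NRF2 targets and the black line the 4150 pairs of all protein-coding genes. Most columns stand to the right of the line's peak: the median was at 590 bases for NRF2 targets and 121.5 bases for all genes.

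Width was compared next, as deposited; the part of the undescribed merging in it was not tested. A peak of 800 bases or more was found at 6 of the 31 targets (19.4%, interval 9.19 to 36.3%), beside 1.65% of protein-coding genes. These 6 were UGDH, SQSTM1, ALDH3A1, AKR1B10, PRDX1 and AKR1C1, all at a start and 4 of them detoxifying genes. In peaks, 6 of 25 were this wide (24%), beside 5.03% of all peaks, and 4 of the 6 were among the 100 widest of the whole set.

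Start peaks of protein-coding genes were compared separately, since their median width was larger. At starts, 6 of 16 peaks of NRF2 targets were 800 bases or more (37.5%), beside 5.97% of 2998 start peaks of all protein-coding genes, and the median widths were 523 and 373 bases. Over all positions the medians were close, 346 bases for the 25 peaks of NRF2 targets and 348 bases for all 6368, and the widest peak of the whole set had 3085 bases. With only peaks of q under 0.05 the median widths were further apart, 521 bases in NRF2 targets and 378 bases in all protein-coding genes. The −log10 q had a median of 1.56 (lowest 0.716, highest 8.19) in NRF2 targets and 1.33 in all peaks. It was 1.34 in the peaks of all protein-coding genes. With only peaks of q under 0.05 the order was reversed, with a median of 1.69 in NRF2 targets and 1.87 in all protein-coding genes. The higher median in NRF2 targets thus depended on including the weaker peaks. A q under 0.05 was reached by 18 of 25 peaks (72.0%), beside 52.1% of all peaks. The highest −log10 q in the whole set was 161, so even the ALDH3A1 peak was far from the strongest of the set.

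**Figure D4:**
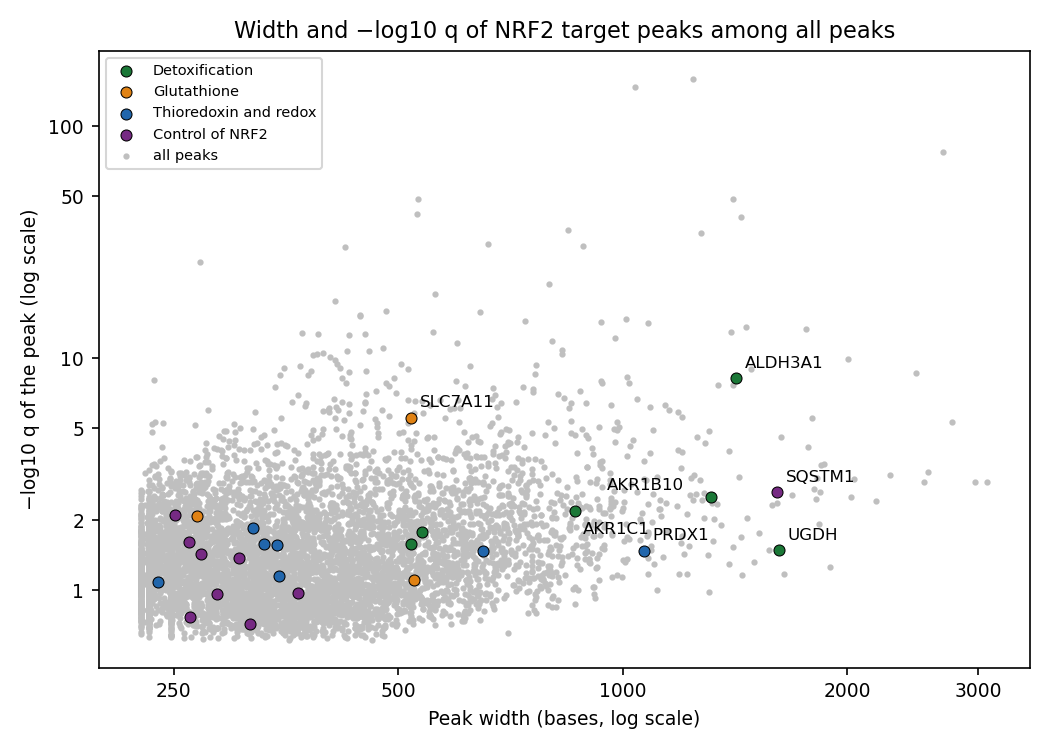
Width (bases, log scale, horizontal axis) and −log10 q (log scale, vertical axis) of the 25 peaks of NRF2 targets (coloured by role) over all 6368 peaks (grey). The 6 peaks of 800 bases or more and SLC7A11 are named. UGDH was the widest of them at 1620 bases and ALDH3A1 the strongest at 8.19. The peaks of genes grouped under control of NRF2, other than SQSTM1, were narrow.

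Base composition was measured over the same peaks. The 6 wide peaks of NRF2 targets had a median G and C content of 52.5% and a median CpG ratio (observed over expected from base content) of 0.472, against 58.2% and 0.689 in all 320 wide peaks. For the 25 peaks together the medians were 57.8% and 0.554, against 61.2% and 0.690 in all peaks. The range among NRF2 targets was 36.6 to 80.2% G and C, so the group was mixed. Whether base composition has a part in the widths or positions was not tested.

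Peaks were next searched for the core letters of the antioxidant response element, TGACNNNGC on either strand (GCNNNGTCA when read on the other), where NRF2 and small MAF proteins can bind. They occurred in 7 of the 25 peaks of NRF2 targets (28%) and in 17.0% of all peaks. In 300 bases centred on each peak, a window of equal length for all, they occurred in 6 of 25 (24%) and in 12.8% of all peaks. Only 1 of the 6 wide peaks held them, that of ALDH3A1, against 36.9% of all wide peaks. A match of these letters describes the sequence and does not show a bound site. The matches in peaks outside annotated untranslated sequence are printed with 25 bases on either side, the matching letters in capitals, to show their surroundings.
ALDH3A1 (chr17:19651033-19651091, plus strand): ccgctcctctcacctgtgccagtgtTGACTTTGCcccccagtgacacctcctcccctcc
SRXN1 (chr20:633205-633263, minus strand): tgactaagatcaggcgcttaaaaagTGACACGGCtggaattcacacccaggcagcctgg
TXNRD1 (chr12:104609768-104609826, plus strand): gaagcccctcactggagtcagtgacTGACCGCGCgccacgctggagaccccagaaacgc
TXNRD1 (chr12:104682846-104682904, minus strand): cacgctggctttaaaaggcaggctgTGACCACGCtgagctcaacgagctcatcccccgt
ABCC3 (chr17:48739271-48739329, minus strand): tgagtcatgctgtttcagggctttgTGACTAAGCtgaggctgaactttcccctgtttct
TRIM16 (chr17:15554535-15554593, minus strand): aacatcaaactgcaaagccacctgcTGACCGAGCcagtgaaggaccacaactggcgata
The SRXN1 match was centred 610 bases past the canonical start and the first of TXNRD1 240 bases. The NFE2L2 peak held the letters too, within an annotated untranslated exon, and TXNRD1 held another match at −4.

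The promoters were searched as well, from 500 bases upstream to 100 downstream of the canonical start. The letters were present in 11 of 31 NRF2 targets (35.5%) and in 23.3% of protein-coding genes. They were present in 5 of the 17 targets with a peak (29.4%) and 6 of the 14 without (42.9%). Promoter matches were thus found in genes with and without a peak, and where a gene had both they were mostly at different positions. In SQSTM1 the match was centred at −348 and the wide peak began 272 bases downstream, in PRDX1 it was at −137 and the peak began at 56 bases, and in GSR it was at −87, between the 2 peaks. Only the TXNRD1 match at −4 lay inside a peak. Not printed are the matches of PGD (TGACATTGC) and CBR1 (TGACTTTGC), genes without a peak, and of TXNRD1 at −95 (TGACTTCGC) and ALDH3A1 at 32 (TGACACAGC). The GSR match and further ME1 matches are not printed either. Promoter matches are printed for SQSTM1, PRDX1 and, without a peak in the gene, for NQO1, GCLM, GPX2 and ME1.
SQSTM1 (chr5:179247528-179247586, minus strand): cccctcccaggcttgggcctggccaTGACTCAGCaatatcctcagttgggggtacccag
PRDX1 (chr1:45987664-45987722, plus strand): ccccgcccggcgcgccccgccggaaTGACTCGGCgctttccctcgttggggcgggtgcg
NQO1 (chr16:69760885-69760943, minus strand): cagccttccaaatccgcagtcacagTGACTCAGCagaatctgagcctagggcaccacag
GCLM (chr1:94374987-94375045, plus strand): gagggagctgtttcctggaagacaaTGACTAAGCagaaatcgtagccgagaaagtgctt
GPX2 (chr14:65409552-65409610, plus strand): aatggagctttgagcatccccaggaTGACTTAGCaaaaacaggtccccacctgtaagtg
ME1 (chr6:84140874-84140932, minus strand): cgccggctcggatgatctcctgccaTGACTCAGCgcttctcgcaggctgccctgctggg
The core in NQO1, SQSTM1 and ME1 was the same, TGACTCAGC, and NQO1 and ME1 had no peak while SQSTM1 had 1 that lay elsewhere.

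Within 10000 bases of an NRF2 target but outside its 1000 flanking bases lay 20 further peaks, near 14 of the 31 genes (45.2%), beside 9.71% of protein-coding genes. Of the 14 targets with no peak of their own, 5 (HMOX1, PGD, TALDO1, ABCC2 and CBR1) had such a peak (35.7%), beside 8.14% of protein-coding genes with none of their own. These counts were made after seeing the data and carry no test.

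HMOX1 had no peak in the gene or 1000 bases around, but 2 peaks lay upstream, and both held the response element letters in repeats. The nearer was 455 bases wide at chr22:35772787-35773241, 3113 bases from the gene, with a −log10 q of 1.25. It held 2 matches 64 bases apart. The farther was 645 bases wide at chr22:35767765-35768409, 7945 bases from the gene, with a −log10 q of 1.84, and held 4 matches at a regular spacing of 29 bases. Both stretches are printed on the minus strand with the matches in capitals.
HMOX1 (chr22:35773065-35773177, minus strand): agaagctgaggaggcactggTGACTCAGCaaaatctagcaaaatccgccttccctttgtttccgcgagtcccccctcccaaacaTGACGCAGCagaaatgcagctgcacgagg
HMOX1 (chr22:35767992-35768127, minus strand): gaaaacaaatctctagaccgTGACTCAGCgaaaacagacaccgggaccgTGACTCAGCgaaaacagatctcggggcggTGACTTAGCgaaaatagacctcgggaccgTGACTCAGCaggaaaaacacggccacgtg
Of all 6368 peaks, 2.17% held 2 or more matches and 5 (0.0785%) held 4 or more. These peaks were looked at after the distances were known, and they overlap the non-coding genes ENSG00000282041 and ENSG00000282602, so neither can be assigned to HMOX1 from position alone.

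Beside the 31 genes, 40 further genes of the NRF2 pathway were counted from a list made for this purpose with earlier results known. A peak in the gene or 1000 bases around was present in 17 of these 40 (42.5%), beside 25.1% of protein-coding genes, but a start peak in only 7 (17.5%), beside 15.7%. The 7 were SLC3A2, the partner chain of SLC7A11 in the cystine transporter (−log10 q 1.93), MTHFD2, a mitochondrial folate enzyme (1.90), GSTP1, a glutathione transferase (1.85), ABCG2, a drug exporter (1.44), AKR1B1, the aldose reductase (1.26), BACH2, a repressor that competes for the element (1.13), and MAFK, another small MAF (0.973). The strongest peaks away from starts of these genes were those of the ferritin genes, at the end of FTL (9.97, 2005 bases) and in the body of FTH1 (2.72, 1805 bases). They were followed by peaks upstream of GSTA4, a glutathione transferase (2.62), upstream of GSK3B, a kinase that marks NRF2 for degradation (2.53), and in the body of CBR3, a carbonyl reductase (1.77). The peaks of GSK3B, CBR3 and MTHFD2 also lay within 200 bases of starts of the non-coding genes GSK3B-DT, CBR3-AS1 and ENSG00000279070. The assignment of these peaks is uncertain.

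The downstream position was counted in the 40 genes as well. A midpoint over 200 and up to 3000 bases past the canonical start was found in 9 of 40 (22.5%), beside 48.4% of the 31 and 8.20% of protein-coding genes. Peaks of 800 bases or more were found in 2 of the 40 (5.00%), beside 19.4% of the 31 and 1.65% of protein-coding genes. The difference between the lists was not tested, since both were drawn up with results in view.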

How the data were processed

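Chromatin from A549 cells was immunoprecipitated for YTHDC1 in 3 replicates, and nothing in the labels says whether they came from separate cultures. The authors aligned the reads to hg19 (Bowtie2 in the methods, BWA in the submitters' notes), pooled them and called broad peaks with MACS2 at a q of 0.1 and a broad cutoff of 0.25. The deposited file gives each peak's position and 1 value, taken to be a −log10 q-value because the lowest, 0.610, lies just above 0.602, −log10 of the cutoff. Peak names (mergeID) refer to a merging step not described in the sources used here. The file gives no depth per sample and no value per replicate, replicate tracks were not analysed here, and 0 columns of other samples were left out.

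Peaks were assigned to genes of GENCODE release 44 mapped to GRCh37, and sequence was read from GRCh37 (Python 3.11.15, pandas 2.3.3, pysam 0.24.0). A peak was at a start if it overlapped 200 bases on either side of an annotated start by 1 base or more, otherwise at the end within 1000 bases of the gene end, otherwise in the body or upstream. The assignment was tested on simulated data. Counts were set beside the same share over all protein-coding genes, with no test. Wilson intervals (95%) and, for a count of 0 among all 31 genes, the limit of 3 counts cover counting only. The genes and lists were chosen with earlier results of these data known. Every one of the 31 genes is named. Of the 40 further genes, those with a start peak and the 5 with the highest −log10 q elsewhere are named. Sequences shown are from the strongest start peaks (central 240 bases) and around some of the response element matches, with none from chromosome 8. The width, downstream and intron 1 counts, the search around HMOX1 and their alternatives were chosen after seeing the data.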

Additional observations from a re-analysis of the deposited data

How the results depend on the processing

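No paired analysis was possible because the replicates were pooled before peak calling, and leaving out each replicate was not run for the same reason. Of 37 repeats under other settings, 30 left the value within 1.5 times, or within its interval for the medians. The targets with a peak in the gene or 1000 bases around numbered 16 with only peaks of q under 0.05 or the stronger 50% of peaks (beside 14.3 and 13.9% of protein-coding genes). They numbered 17 with no bases around (beside 21.5%) and 21 with 5000 bases (beside 28.1%). The start count depended most on the definition. It was 12 with q under 0.05 (beside 8.96%), 15 with a window of 500 bases (18.6%) and 16 with 1000 bases (20.0%). With only the canonical start it was 8 (beside 11.7%). It was 6 (10.8%) when the midpoint, and 5 (10.4%) when 50% of the peak, had to lie in the window. Most of these peaks are centred further downstream. The end count was 1 with q under 0.05 (beside 1.51%) or the stronger peaks (1.47%), and 0 with an end window of 200 bases (beside 0.987%). With 5000 bases around, 41 peaks were counted in place of 25. The median −log10 q of NRF2 targets was 1.69 with q under 0.05 (beside 1.87 in protein-coding genes) or the stronger peaks (1.90). In both cases it was lower in NRF2 targets, the reverse of the order with all peaks. The median width was 521 bases in both cases (beside 378 and 379.5 bases). The downstream count was 14 with q under 0.05 (beside 4.50%) and 12 with a limit of 1000 bases (6.99%) or from any annotated start (7.61%). The wide count was 7 from 600 bases (4.38%), 5 from 1000 bases (0.709%) and 5 without the AKR1C genes (1.65%). Without an input library or replicate values, no peak can be set against background or its own error, and a gene without a peak may be below detection.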

Other observations

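Downstream of SQSTM1, 3 peaks lay inside the neighbouring gene MRNIP, 1384, 2335 and 2849 bases from SQSTM1, with −log10 q of 2.57, 2.35 and 1.68. The PGD peak was 1570 bases past the gene (1.35), the TALDO1 peak 4424 bases upstream (1.02), and the ABCC2 peaks 2649 and 3439 bases past the gene (0.894 and 1.48). The peak nearest to CBR1 lay at the start of SETD4, a methyltransferase gene, with a −log10 q of 1.51. These peaks were listed after seeing the data, and which gene each belongs to cannot be told from position.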
